A study of Mus musculus with 8 samples.

Results

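The aryl hydrocarbon receptor, its partner, its repressor and 3 of its best known target genes were followed in mouse hearts: Ahr, Arnt, Ahrr, Tiparp, Cyp1b1 and Cyp1a1. These 6 genes were taken by symbol from the 27304 genes of a bulk RNA sequencing count table, and all 6 were found and had enough reads to be tested. Hearts came from male 129/Sv mice, an inbred strain. The control group (4 libraries, titled Sham) ate standard chow for 13 weeks and was labelled healthy. The adenine group (4 libraries) ate food with 0.15% adenine over the same time and was labelled as having chronic kidney disease. No genetic change or further agent is given for either group, and the labels state neither age, heart chamber nor hour of sampling.

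AHR is a transcription factor of the bHLH-PAS family that waits in the cytosol, bound to chaperones, until a flat aromatic ligand enters the cell. It then moves to the nucleus, pairs with ARNT and binds DNA that carries the core letters GCGTG. Indole solutes such as indoxyl sulfate, which the kidney normally clears, are known ligands. Among its targets are the monooxygenases CYP1A1 and CYP1B1 and the brakes AHRR, which competes for ARNT, and TIPARP, which attaches ADP-ribose to the receptor. Strains of the 129 group are known for an Ahr allele whose product binds ligands less tightly than that of C57BL/6, a background that control and adenine mice share.

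The core was searched on both strands in the 250 bases before the RefSeq start of each gene (GRCm38.p6), for which 5 of the 6 members had an entry. Each of the 5 windows held GCGTG, as did 28.2% of 32851 such windows of all genes. The 5 windows had 53.6 to 75.2% G and C, against a median of 52.4% over all windows, which the comparison does not allow for. The sequences of the 4 target genes are shown, 5′ to 3′ on the gene's strand, because these are the genes whose level is used as a readout of the receptor. Capitals mark the core, which reads CACGC where it lies on the other strand.
Ahrr: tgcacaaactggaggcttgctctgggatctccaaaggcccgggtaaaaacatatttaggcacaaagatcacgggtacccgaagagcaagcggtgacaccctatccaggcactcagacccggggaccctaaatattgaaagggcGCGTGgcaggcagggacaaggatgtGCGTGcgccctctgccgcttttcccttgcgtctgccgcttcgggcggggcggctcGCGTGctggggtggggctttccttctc
Tiparp: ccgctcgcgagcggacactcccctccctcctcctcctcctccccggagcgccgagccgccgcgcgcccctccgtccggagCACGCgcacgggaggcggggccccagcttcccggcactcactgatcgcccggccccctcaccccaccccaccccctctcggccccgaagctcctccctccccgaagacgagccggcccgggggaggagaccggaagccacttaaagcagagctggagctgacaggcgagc
Cyp1b1: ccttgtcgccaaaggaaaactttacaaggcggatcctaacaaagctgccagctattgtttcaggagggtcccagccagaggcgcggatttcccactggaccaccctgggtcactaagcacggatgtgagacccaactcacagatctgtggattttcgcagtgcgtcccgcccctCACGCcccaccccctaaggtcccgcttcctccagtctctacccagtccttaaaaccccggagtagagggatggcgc
Cyp1a1: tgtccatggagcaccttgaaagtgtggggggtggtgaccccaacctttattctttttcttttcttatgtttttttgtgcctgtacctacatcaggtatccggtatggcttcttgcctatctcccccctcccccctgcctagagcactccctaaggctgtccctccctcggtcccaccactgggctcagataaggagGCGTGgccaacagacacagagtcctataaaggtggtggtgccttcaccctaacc
These windows are chr13:74292332-74292581 (minus strand) for Ahrr, chr3:65528197-65528446 (plus) for Tiparp, chr17:79715062-79715311 (minus) for Cyp1b1 and chr9:57697363-57697612 (plus) for Cyp1a1. Ahrr held 3 copies and the others 1 each. The longer form TNGCGTG was found in Ahrr alone among the 5, ending 23 bases before the start, and in 4.10% of all windows. GCGTG is also a form of the hypoxia response core, so the letters do not belong to AHR alone. The Cyp1a1 window is known to lie downstream of the enhancer through which AHR induces that gene. This window follows the RefSeq start and lies inside the GENCODE span of Cyp1a1 given below, which begins further upstream. The Tiparp window overlaps the start of its GENCODE span.

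On GRCm38 (GENCODE M21), Ahr (ENSMUSG00000019256) spans 35497974 to 35535038 on chromosome 12, Arnt (ENSMUSG00000015522) 95434388 to 95497240 on chromosome 3 and Ahrr (ENSMUSG00000021575) 74211118 to 74292331 on chromosome 13. Tiparp (ENSMUSG00000034640) spans 65528410 to 65555518 on chromosome 3, Cyp1b1 (ENSMUSG00000024087) 79701537 to 79715061 on chromosome 17 and Cyp1a1 (ENSMUSG00000032315) 57687928 to 57703824 on chromosome 9. All 6 are protein-coding. Exons of Ahr share 127 bases (2.06% of their length) with the long noncoding RNA gene Gm48236, and exons of Tiparp share 223 bases (5.12%) with the pseudogene 4931440P22Rik. Both neighbours are antisense to the member, and the strand setting of the counting is unknown here, so a small part of these 2 counts is uncertain.

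Libraries held 15626620 to 33886385 counts, with the smallest in adenine 2, where 1 CPM (read counts scaled to library size with TMM factors) was 16.4 reads. All 6 cardiomyocyte markers were detected and summed to 24550 to 44870 CPM. The 5 markers of lung epithelium summed to 2.10 to 4.89 CPM in the controls and 5.66 to 9.03 CPM in the adenine libraries. Sftpc and Scgb1a1 were under 1 CPM in every library, and hepatocyte markers summed to 2.64 to 7.08 CPM. Lymphocyte markers summed to 5.80 to 8.705 CPM in the controls and 11.8 to 20.7 CPM in the adenine libraries, and erythroid markers to 7003 to 26030 and 1654 to 3081 CPM. These 3 sums did not overlap between the diets (adjusted p = 0.105 each over 11 marker lists, exact permutation). Adenine 3 stood apart with 2476 CPM over 6 macrophage markers, against 255 to 555 CPM elsewhere. The 5 atrial markers summed to 4862 CPM in control 2, 2181 CPM in adenine 3 and 105 CPM in adenine 2. The other libraries held 866 to 1088 CPM. Control 2 and adenine 3 also held the highest levels of Tiparp and Cyp1b1, and adenine 2 the lowest. The part of atrial tissue in the member levels was not tested. The 1470 olfactory and vomeronasal receptor genes, known from sensory neurons rather than heart, summed to 368 to 922 CPM in the controls, 667 to 1311 CPM in adenine 1, 3 and 4 and 2100 CPM in adenine 2 (unscaled). The design text of the series states that there were no replicates, while the sample titles number 4 libraries per diet. They were treated here as replicates, and nothing in the labels says that they came from separate animals. Every SD, SE, interval and p therefore rests on that reading, and measures the spread between these samples only, which may be technical.

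The comparison of the diets asks whether transcripts of this pathway differ between hearts of mice with and without adenine-induced kidney disease. None of the 6 members passed an adjusted p of 0.05 over the 20093 genes tested in edgeR's quasi-likelihood test, where 0.0398% of genes did. None had an unadjusted p under 0.05 either (17.5% of genes), and DESeq2 called 0 of the 6 (1.43% of genes with an adjusted p there). The libraries of the diets overlapped for each member, whereas 3.45% of all genes had every adenine library higher and 3.87% every adenine library lower (7.32% together). The values of each member follow by its role.

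Ahr itself stood at 6.54, 7.62, 9.16 and 8.97 CPM in control 1 to 4 and at 9.43, 8.11, 8.05 and 9.85 CPM in adenine 1 to 4. The groups overlapped, and the libraries spread little within either diet. The log2 fold change, adenine minus control, was 0.14 (SE 0.17), which is 1.10-fold with a 95% interval of 0.85 to 1.42-fold (n = 4 per diet; adjusted p = 0.640, edgeR). Larger changes of the receptor transcript lie outside that interval, and smaller ones could not be told from none. In bulk heart tissue, fewer cells of a type and less RNA per cell cannot be told apart.

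Arnt, whose product also pairs with the hypoxia-inducible factors, had 29.1, 35.1, 31.9 and 26.8 CPM in control 1 to 4 and 26.5, 27.6, 29.4 and 27.7 CPM in adenine 1 to 4. Control 2 and control 3 lay above all adenine libraries, and the other controls lay among them. Its log2 fold change was -0.14 (SE 0.13), or 0.90-fold with an interval of 0.74 to 1.10-fold (adjusted p = 0.517, edgeR). With upper-quartile factors, which moved the median of all genes up by 0.14, the estimate was 0.004. Relative to the median of all genes it was -0.20 and -0.19 under the main and the upper-quartile scaling. Genes of 10 to 100 CPM, the level of Arnt, had a median of -0.15 under the main scaling, close to the Arnt estimate.

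**Figure D1:**
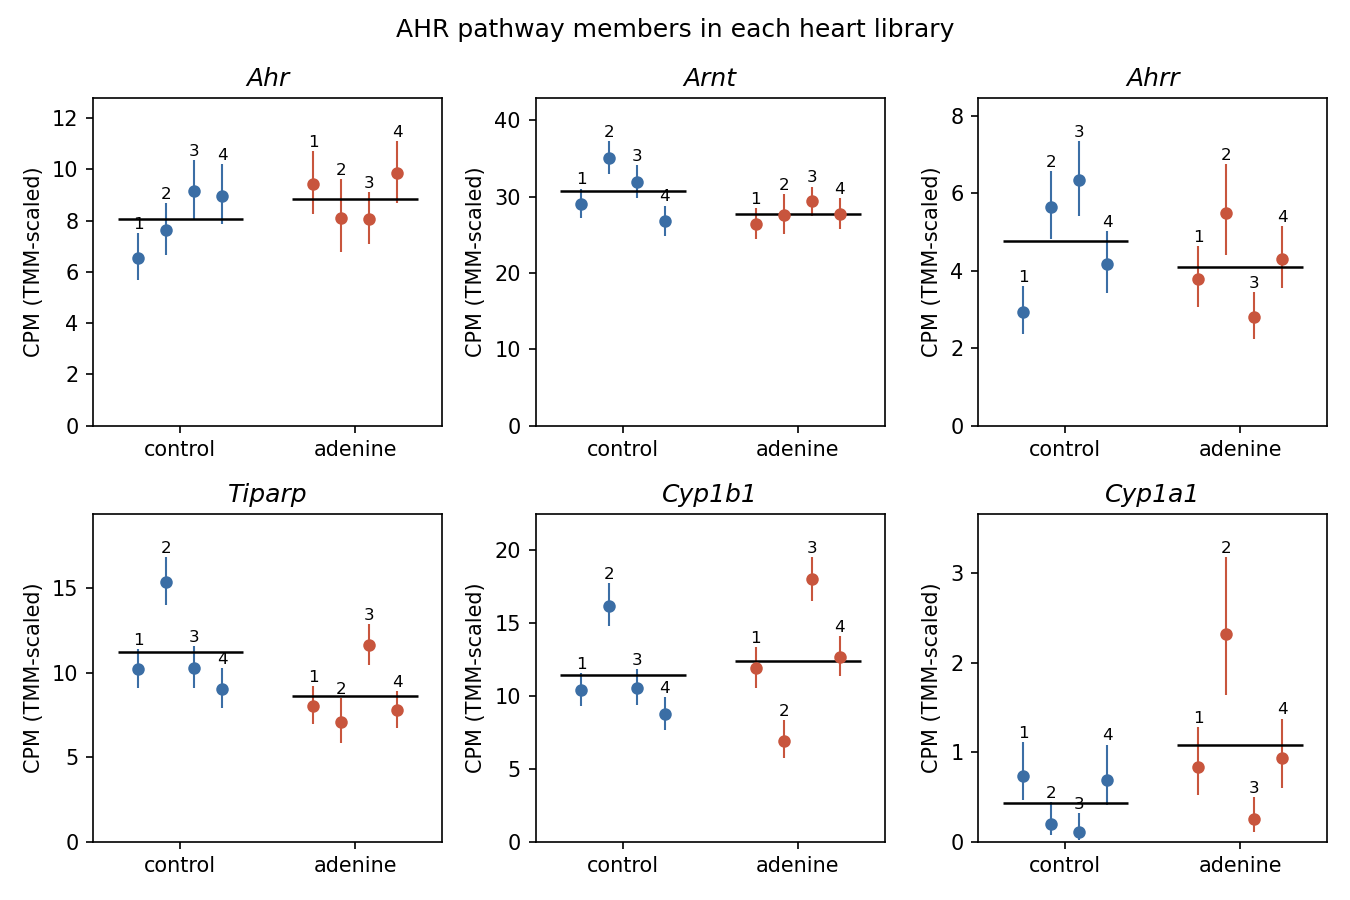
CPM of the 6 members in each library (y axes from 0), by diet on the x axis. Points are libraries numbered by replicate, bars are exact 95% Poisson intervals of the counts (counting error only), and horizontal lines are means of 4 libraries. The diets overlap in every panel, and Cyp1a1 lies highest in adenine 2, at 2.32 CPM.

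Ahrr, the repressor, ranged more widely within each diet than the receptor did. Its levels were 2.93, 5.66, 6.33 and 4.16 CPM in control 1 to 4 and 3.80, 5.49, 2.80 and 4.29 CPM in adenine 1 to 4. Control 1 and adenine 3 were the lowest of the 8, and control 3 the highest. The log2 fold change was -0.23 (SE 0.29), with an interval of -0.84 to 0.39 (adjusted p = 0.642, edgeR). It was -0.41 without control 1, -0.39 without adenine 2, -0.09 without adenine 3 and -0.07 without control 3, so its size depends on single libraries.

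Tiparp had 10.2, 15.3, 10.3 and 9.01 CPM in control 1 to 4 and 8.03, 7.08, 11.6 and 7.76 CPM in adenine 1 to 4. Adenine 1, 2 and 4 lay below all controls, while adenine 3 lay above 3 of the 4. Its log2 fold change of -0.37 (SE 0.21) corresponds to 0.77-fold, with an interval of 0.56 to 1.06-fold (adjusted p = 0.342, edgeR; exact two-sided permutation p = 0.171, where 0.0286 is the smallest that 70 assignments allow). Without adenine 3 the value was -0.56 (adjusted p = 0.0982, edgeR), with a log2 interval of -0.98 to -0.15 that excluded 0. Without control 2 it was -0.18, and with the sensory receptor reads as a covariate -0.08. The pathway's ADP-ribosylating brake was therefore not shown to differ, and its estimate depends on adenine 3, on control 2 and on that covariate.

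Cyp1b1, a monooxygenase of steroids and fatty acids that mesenchymal cells are known to express, had 10.4, 16.2, 10.6 and 8.74 CPM in control 1 to 4 and 11.9, 6.95, 18.0 and 12.7 CPM in adenine 1 to 4. The adenine libraries held both the highest and the lowest value of the 8. The log2 fold change was 0.12 (SE 0.26), with an interval of -0.45 to 0.68 (adjusted p = 0.798, edgeR). Without adenine 3 the sign turned, to -0.13, without control 4 it was 0.002, and without control 2 or adenine 2 it was 0.34 and 0.31. With the sensory receptor reads as a covariate it was 0.54 (SE 0.20, adjusted p = 0.467, edgeR), with a log2 interval of 0.09 to 0.99 that excluded 0. The 6 fibroblast markers summed to 983 to 1588 CPM in the controls and 572 to 1157 CPM in the adenine libraries, with the highest sums of their diets in control 2 and adenine 3 and the lowest in control 4 and adenine 2, as for Cyp1b1. Mural markers summed to 823 to 1192 and 669 to 922 CPM. Their part in the result was not tested.

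Cyp1a1, the most inducible target of the receptor, was barely present. Counts were 23, 6, 3 and 18 reads in control 1 to 4 and 21, 38, 8 and 25 reads in adenine 1 to 4. These are 0.741, 0.203, 0.112 and 0.687 CPM against 0.839, 2.32, 0.254 and 0.933 CPM. Adenine 1, 2 and 4 lay above all controls, but the exact 95% Poisson interval of adenine 1 (0.519 to 1.28 CPM) holds the value of control 1. The interval of adenine 2, 1.64 to 3.18 CPM, lay above those of the other libraries. Control 3, with 3 reads, was at the limit that a count of 0 allows in that library, 0.112 CPM. Such intervals cover counting error only.

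The log2 fold change of Cyp1a1 was 1.27 (SE 0.70), or 2.41-fold with an interval of 0.84 to 6.90-fold (adjusted p = 0.334, edgeR; exact permutation p = 0.143). It was the largest estimate of the 6 and the least precise. Without adenine 2 it was 0.61 and without control 1 it was 1.66. Without adenine 3 it was 1.60 (SE 0.61, adjusted p = 0.119, edgeR), with a log2 interval of 0.30 to 2.90 that excluded 0. Genes with a mean under 1 CPM, as Cyp1a1 has, had a median log2 fold change of 0.81 over 4077 tested, 94.0% of them positive, and 76.8% had their highest library in adenine 2. For genes of 10 to 100 CPM the median was -0.15. The 6 endothelial markers, from a cell type known to induce Cyp1a1, summed to 571 to 800.3 CPM in the controls and 455 to 628 CPM in the adenine libraries, which was not tested against it. With the sensory receptor reads as a covariate the Cyp1a1 estimate was 0.27 (SE 0.65, adjusted p = 0.951). Induction of Cyp1a1 was thus not detectable over the 8 libraries at this depth and spread. Their interval still holds changes from a small decrease to a several-fold increase.

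**Figure D2:**
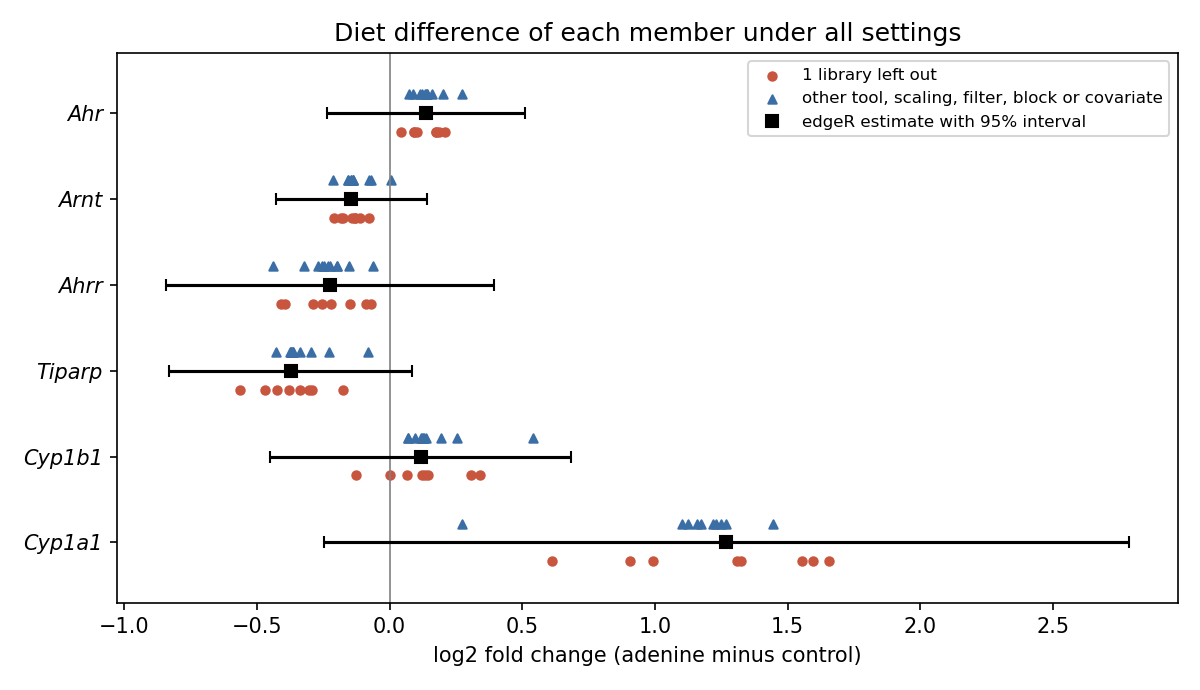
Log2 fold change of each member (x axis, adenine minus control). Squares with bars are edgeR estimates with 95% intervals, circles leave out 1 library, and triangles are other tools, scalings, filters, the replicate block or the covariate. Every interval holds 0, and Cyp1a1 runs from 0.27 to 1.66 over the settings.

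Per kilobase of exon, the order of mean levels over the 8 libraries was Arnt with 3.65 ± 0.37, Tiparp with 2.27 ± 0.61, Cyp1b1 with 2.04 ± 0.63, Ahr with 1.37 ± 0.18, Ahrr with 0.469 ± 0.137 and Cyp1a1 with 0.273 ± 0.252 CPM per kilobase (SD, n = 8). Arnt exceeded Tiparp in 8 of 8 libraries, although the ranges over libraries met. Tiparp exceeded Cyp1b1 in 5 of 8, so the order of these 2 neighbours is not set. Cyp1b1 exceeded Ahr in 7 of 8 and Ahr exceeded Ahrr in 8 of 8, with separate ranges only for the latter pair. Ahrr exceeded Cyp1a1 in 7 of 8 libraries, the exception being adenine 2. Per length, the partner was 2.66 times as abundant as the receptor, with 2.16 to 3.55 times in single libraries. Exon length here joins all annotated transcripts of a gene, 11 for Arnt and 3 for Ahr. The order and the ratios therefore depend on that annotation.

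Whether the targets moved together from library to library was described over the 8 libraries. Of 21 relations, 15 between members and 6 with the sensory receptor reads, 0 passed Benjamini-Hochberg adjustment (log2 CPM, exact permutation over 40320 pairings). Tiparp and Arnt had r = 0.86 (p = 0.00657, adjusted p = 0.0870, exact permutation) and rho = 0.79 (p = 0.0279, adjusted p = 0.293, exact permutation), with r = 0.70 without control 2 and control 3. Tiparp and Cyp1a1, which the same receptor drives, ran in opposite directions, with r = -0.80 (p = 0.0158, adjusted p = 0.1103, exact permutation) and rho = -0.90 (p = 0.00456, adjusted p = 0.0958, exact permutation). Without control 3 and adenine 2 their r was -0.93. Tiparp and Cyp1b1 ran in the same direction, with r = 0.70 (p = 0.0540, adjusted p = 0.1745, exact permutation) and rho = 0.60 (p = 0.132, adjusted p = 0.464, exact permutation). Their r was 0.54 without adenine 2 and adenine 3, and 0.90 after centring within each diet.

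Arnt and Cyp1a1 had r = -0.74 (exact permutation p = 0.0322, adjusted p = 0.169) and rho = -0.71 (exact permutation p = 0.0576, adjusted p = 0.302), with r = -0.45 without control 2 and control 3. Cyp1a1 and Cyp1b1 had r = -0.64 (exact permutation p = 0.0840, adjusted p = 0.2204) and rho = -0.40 (exact permutation p = 0.327, adjusted p = 0.528), with r = -0.77 without control 3 and adenine 2. No positive relation of these 2 cytochromes was seen. Tiparp also had r = -0.85 with the sensory receptor reads (exact permutation p = 0.00828, adjusted p = 0.0870) and rho = -0.74 (p = 0.0458, adjusted p = 0.302, exact permutation). That r was -0.57 without control 2 and adenine 2, and -0.79 after centring within each diet. For Cyp1a1 and these reads r was 0.69 (exact permutation p = 0.0539, adjusted p = 0.1745) and rho 0.52 (exact permutation p = 0.197, adjusted p = 0.464). It was 0.20 without control 2 and adenine 2, which held the lowest and highest of these reads, and 0.58 after centring within each diet. Leaving out the extremes of a variable narrows its range, so such a fall cannot show whether a relation rests on those libraries. Cyp1b1 and these reads had r = -0.68 (exact permutation p = 0.0582, adjusted p = 0.1745) and rho = -0.48 (exact permutation p = 0.243, adjusted p = 0.464). That r was -0.09 without the same pair of libraries, and -0.86 after centring within each diet.

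**Figure D3:**
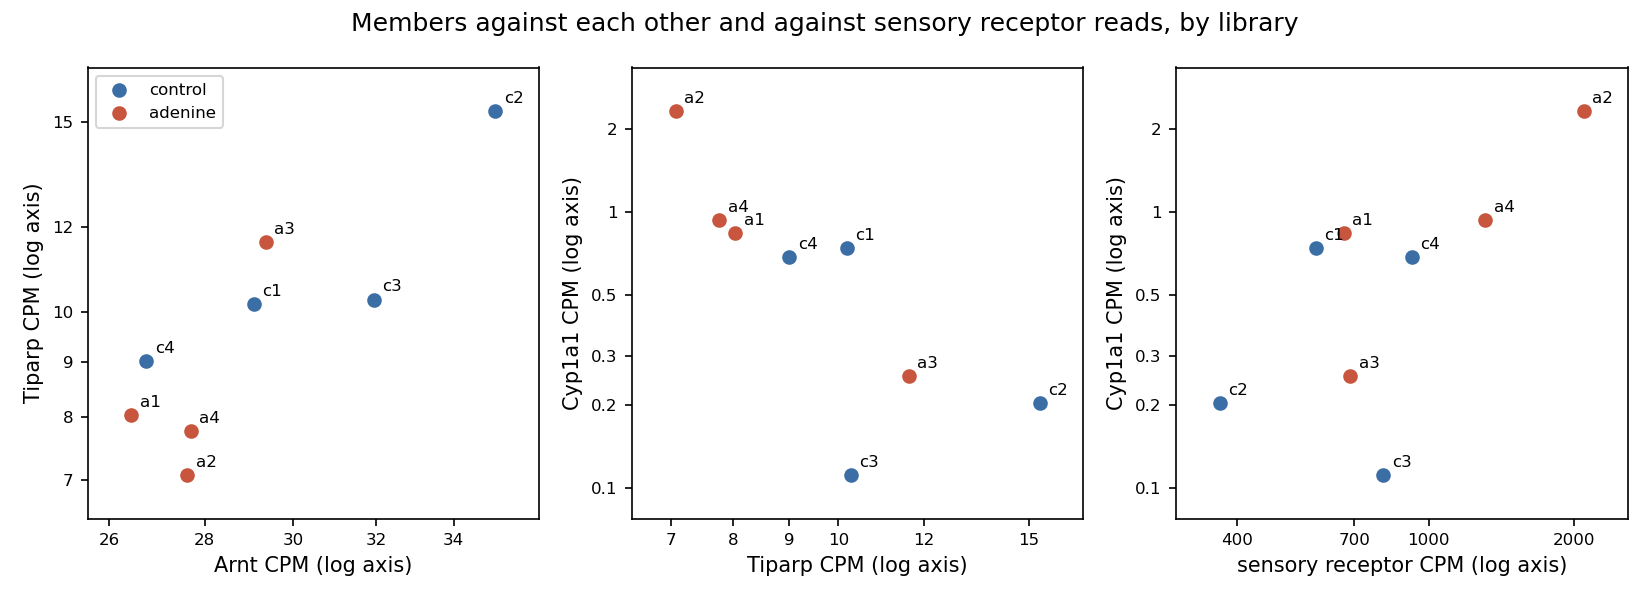
Levels in the 8 libraries on log axes (CPM; sensory receptor reads unscaled), labelled c1 to c4 for control and a1 to a4 for adenine. Tiparp runs with Arnt (left, r = 0.86) and against Cyp1a1 (middle, r = -0.80), and adenine 2 has the most Cyp1a1 and the most sensory receptor reads (right).

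The genes whose levels ran most like a member over the 8 libraries were sought among 15062 genes that averaged 1 CPM or more. Cyp1a1, with a mean of 0.761 CPM, lay under that floor and was not included. Ahr was most like Insyn2a, the RNA-binding protein gene Celf2 and Cyp4f13 (Pearson r = 0.93 to 0.95), and Ahrr most like Gatad2b, Ppfibp2 and Fbxl12 (0.95 to 0.96). Arnt was most like the ubiquitin ligase scaffold Cul5, the sterol sensor partner Insig1 and Pnpla8 (r = 0.99 each). Cyp1b1 was most like Fhl1, a LIM-domain protein of muscle, Psmd8, a proteasome subunit, and Rchy1 (0.97 to 0.98). Tiparp was most like the SNARE gene Bet1, Anapc1 and Zfx (0.98 to 0.99). These are the closest of many genes in 8 libraries that share depth and scaling, and none of the 5 members compared was among the 3 closest genes of another.

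Around the receptor, 69 further genes in 7 lists were measured, and 0 passed over all genes in edgeR, where 0.0398% of genes did. Estimates were positive for 54.2% of all genes tested. By level this share was 94.0% under 1 CPM and 68.6% at 1 to 10 CPM (median 0.28). It was 22.2% at 10 to 100 CPM and 21.4% at 100 CPM and above. The chaperone complex that holds AHR in the cytosol had negative estimates for 3 of 3 genes, with a median log2 fold change of -0.24 against 0.05 over all genes tested. Hsp90ab1, the constitutive HSP90 isoform, had 955 ± 45.2 and 743 ± 134 CPM (SD, n = 4 each), and Hsp90aa1, the inducible isoform, 210.2 ± 23.5 and 178 ± 38.7 CPM. Ptges3, an HSP90 co-chaperone, had 71.3 ± 7.19 and 63.6 ± 2.56 CPM (log2 fold change -0.16, SE 0.13). Genes of 10 to 100 CPM and of 100 CPM and above had medians of -0.15 and -0.17, the direction of this complex.

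Of 14 other genes known to be induced through AHR, 10 had positive and 4 negative estimates, with a median of 0.24 and 0 called. An unadjusted p under 0.05 in edgeR was found for 0 of them, against 17.5% of all genes. Nqo1, a quinone reductase shared with the NRF2 pathway, had 30.9 ± 5.60 and 38.7 ± 18.1 CPM, with a log2 fold change of 0.32 (SE 0.26). Its highest library was adenine 3, with 65.1 CPM, the library with the most macrophage marker reads, whose part in this value was not tested. Without adenine 3 the Nqo1 estimate turned to -0.06. Cyp1a2, the paralog next to Cyp1a1, had 0.313 ± 0.276 and 0.554 ± 0.315 CPM. The conjugating enzymes Ugt1a6a, Ugt1a7c and Gsta2 had log2 fold changes of 0.64, 0.52 and 1.03 (SE 0.34, 0.36 and 0.56; adjusted p = 0.322, 0.409 and 0.329, edgeR). Ugt1a7c was also highest in adenine 3, at 3.37 CPM, where adenine 1, 2 and 4 held 1.52 to 1.77 CPM, and had 0.15 without it. Gsta2 was highest in adenine 2, at 1.95 CPM, and had 0.55 without it. Ugt1a genes share exons and Gsta2 closely resembles Gsta1, so the split of their reads is uncertain, and all 3 lay under 3 CPM in mean.

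Among 13 bHLH-PAS relatives and other partners of ARNT, 9 had positive and 4 negative estimates (median 0.55). An unadjusted p under 0.05 in edgeR was found for 4 of them, against 17.5% of all genes. Hif3a, a hypoxia-inducible factor subunit with forms that restrain the pathway, had 2.03, 3.01, 3.65 and 3.82 CPM in control 1 to 4 and 9.91, 9.88, 6.46 and 5.71 CPM in adenine 1 to 4. All adenine libraries lay above all controls, with a log2 fold change of 1.35 (SE 0.26). Such separation was seen for 2 of the 13, Hif3a and Arntl2, and for 3.45% of all genes tested. It did not pass in edgeR (adjusted p = 0.1104), but did in DESeq2 (0.00281) and in edgeR without adenine 3 (0.0263). Arntl, which encodes the clock activator BMAL1, had -0.73 (SE 0.30, adjusted p = 0.271, edgeR). With single libraries left out, the Arntl estimate ran from -1.12 without adenine 4 to -0.53 without control 2. Its relative Arntl2 had 0.55 (SE 0.23, adjusted p = 0.274, edgeR). Epas1, the most abundant of the list per length, stood at 233 ± 22.3 and 229 ± 37.2 CPM.

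Coactivators and corepressors of the receptor had log2 fold changes of -0.11 to 0.13 in 9 genes, 5 positive and 4 negative. Crebbp and Ep300, both histone acetyltransferases, had 0.13 (SE 0.13) and 0.11 (SE 0.13), and the coactivator Ncoa3 0.10 (SE 0.13). Relatives of TIPARP in the PARP family had a median of -0.15 over 12 genes, 3 positive and 9 negative. Most stood at 10 to 100 CPM, where the median of all genes was also -0.15 and 22.2% were positive. For 1 of the 12 every adenine library was higher than every control, as for 3.45% of all genes. Parp10, Parp1 and Parp3, with the lowest p of these, had -0.32 (SE 0.18), -0.26 (SE 0.15) and -0.22 (SE 0.16).

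Enzymes of tryptophan and kynurenine metabolism, not all of which make ligands of AHR, had positive estimates in 9 of 11 genes (median 0.48). Those 9 were scarce. Of all genes at 1 to 10 CPM 68.6% were positive, and of those under 1 CPM 94.0%. Haao, which acts late in the pathway, had 1.19 ± 0.481 and 2.33 ± 0.802 CPM, with a log2 fold change of 0.96 (SE 0.37, adjusted p = 0.264, edgeR). Kynu and Aadat had 0.77 (SE 0.43) and 0.74 (SE 0.43), and without control 2 Kynu had 0.47. Of 7 genes that make or carry indole uremic solutes, 5 had positive and 2 negative estimates (median 0.15). The organic anion transporters Slc22a6, Slc22a8 and Slco4c1, known from kidney, had means of 0.342, 0.573 and 0.837 CPM in the controls and 0.986, 1.06 and 1.51 CPM in the adenine libraries. Their log2 fold changes were 1.48 (SE 0.78), 0.87 (SE 0.59) and 0.84 (SE 0.42), at levels where the median of all genes was positive too. Without adenine 2, Slc22a6 had 0.76 and Slc22a8 0.52.

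**Figure D4:**
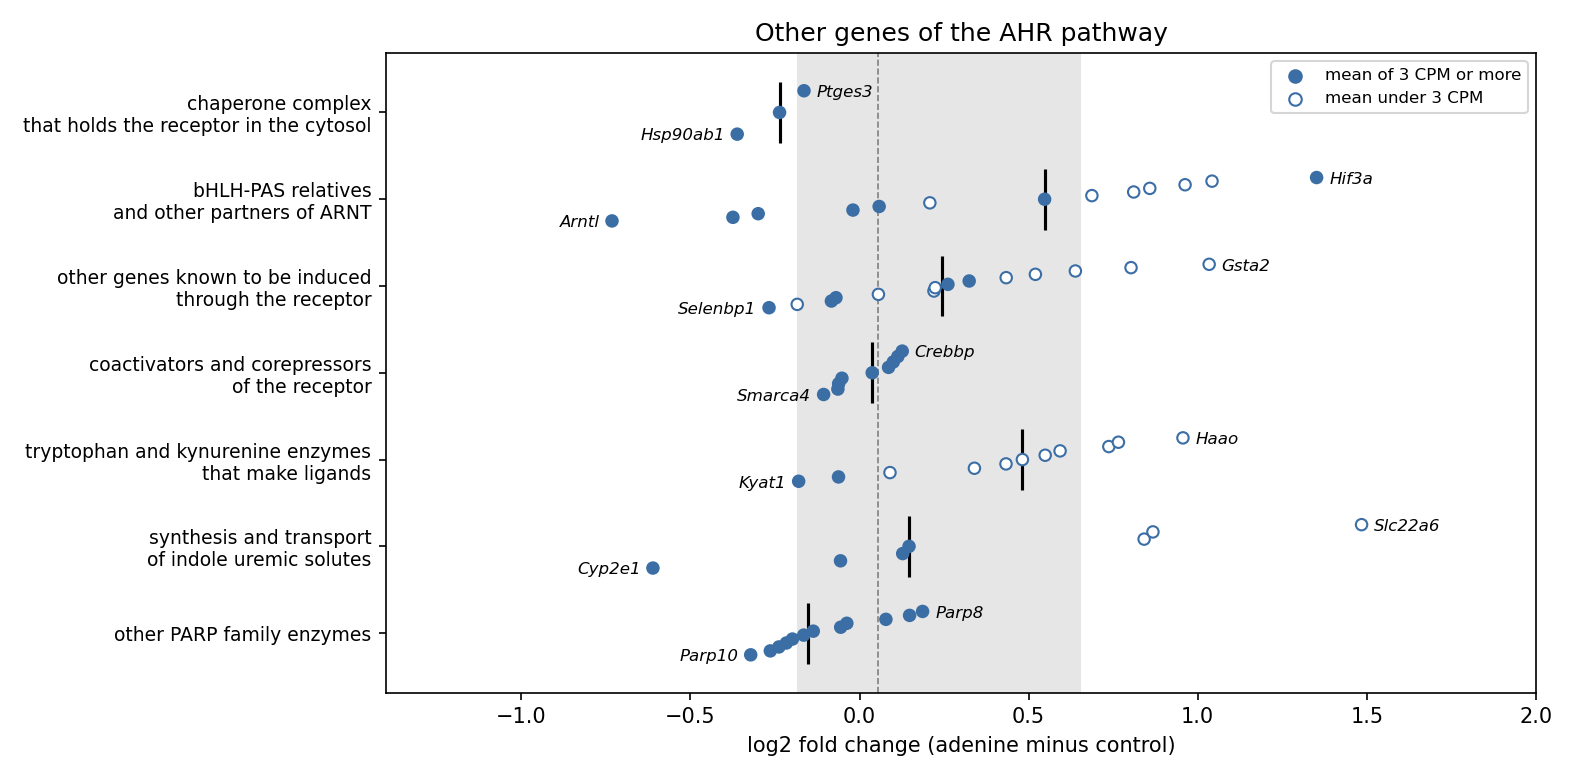
Log2 fold change (x axis, adenine minus control) of 69 other pathway genes by list. Points are genes, filled for a mean of 3 CPM or more, black lines are list medians, the dashed line is the median and the grey band the middle quartiles of 20093 genes tested. Hif3a (1.35) is the highest filled point, and points right of the band other than Hif3a are open.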

How the data were processed

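The file the authors deposited holds unscaled read counts of each gene as whole numbers. The submitters' processing notes list FastQC (0.11.9), STAR (2.7.6a) and GRCm38.p6. Per the labels' protocols, RNA of snap-frozen hearts went into NEBNext Ultra libraries. How reads were assigned to genes is not stated in the sources at hand.

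Diet was tested with edgeR 4.0.16 in R 4.3.3: default low-count filter by group, TMM factors, quasi-likelihood F-test, and Benjamini-Hochberg adjustment over 20093 genes, with an adjusted p under 0.05 called. Standard errors and 95% intervals derive from the F statistic. Alternatives were DESeq2 1.42.0, limma-voom (limma 3.58.1), other factors and filters, the replicate number as a block, and each library left out. The sensory receptor covariate was added after seeing the data. Log2 CPM for correlations used a prior count of 2. Where 2 libraries were left out of a correlation, they were those farthest from the median of a single variable. That variable was the sensory receptor reads or, between members, a single gene of the pair. Exon lengths and coordinates come from GENCODE M21, promoter windows from RefSeq. The members and lists were chosen with earlier results of these data known. Of each list, called genes or otherwise the 3 with the lowest p were named, Cyp1a2 and Nqo1 in any case, and the 3 genes most alike per member. In these lists 2 further genes were left out of every count and are not reported here. Epas1, shown for its level, was chosen after its values were seen. No pair of libraries within a diet agreed within sampling noise (chi-square per gene 20.1 to 93.9).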

Additional observations from a re-analysis of the deposited data

How the results depend on the processing

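No member passed under any of 19 settings, of which the filter of 1 CPM in 4 libraries left Cyp1a1 untested and the exact permutation gives no adjusted p. Signs were as reported except for Arnt with upper-quartile factors (0.0042) and Cyp1b1 without adenine 3 (-0.13). Leaving out each library in turn gave log2 fold changes of 0.04 to 0.21 for Ahr, -0.21 to -0.08 for Arnt, -0.41 to -0.07 for Ahrr, -0.56 to -0.18 for Tiparp, -0.13 to 0.34 for Cyp1b1 and 0.61 to 1.66 for Cyp1a1.

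Over all genes, 8 were called higher and 0 lower, where 3514 had an unadjusted p under 0.05 in edgeR. The counts were 18 and 1 with upper-quartile factors, 120 and 152 in DESeq2, 5 and 0 in limma-voom, 12 and 6 in robust edgeR, 8 and 1 without a filter and 20 and 2 with the sensory receptor covariate. Leaving out each library gave 1 to 37 higher and 0 to 30 lower, with the highest of both without adenine 3. The replicate block gave 16 higher and 16 lower. Same-numbered libraries of the diets correlated at 0.0863, -0.50, -0.16 and 0.30 in their deviations from group means, so the numbers were not taken as pairs.

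Cyp1a1 had 3 to 38 reads per library, and its libraries also differed within a diet by more than counting error.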
